A study of Mus musculus with 8 samples.

Results

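The 31 genes described here make or regulate cholesterol and fatty acids: 18 sterol enzymes, 7 genes of sterol sensing and transport, and 6 fatty acid enzymes. They were chosen by name, and their probes were found through the RefSeq accession that the array design gives each probe. All 31 genes were found, of 20660 genes with a probe, through 43 of the 55681 probes. The brightest probe stood for each gene, and for 31 of 31 it was well above background on all 8 arrays, so no member was lost to the filter on dim probes.

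Expression was measured on 8 single-colour arrays of 1 slide in neurospheres, the balls of cells that neural stem cells form in culture, started from the mouse ganglionic eminence at E14.5. Per the labels, 3 arrays are wild type (+/+) in floating culture, 3 are HP1gamma KO (-/-) in floating culture and 2 are HP1gamma KO in adherent culture, called WT floating, KO floating and KO adherent here. HP1gamma, encoded by Cbx3, is a heterochromatin protein that reads methylated lysine on histone H3. Every sample came from a single embryonic brain and was used as quaternary neurospheres. All were grown for 7 days in Neurobasal medium with B-27, EGF and bFGF at 20 ng/ml each and heparin at 5 µg/ml. The protocol names low-attachment plates for every sample and does not describe the adherent culture further. The sources used here do not say how the deletion was made, nor whether any embryo gave both a floating and an adherent culture. A level is the log2 processed signal minus that array's 75th percentile, and a difference of 1 in it is a 2-fold change.

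Cbx3 did not follow the label on 2 arrays. Its level was 5.83 and 5.95 on WT floating 1 and 3, and -1.86, -2.76 and -1.75 on KO floating 1, 2 and 3. It was -2.17 on the array labelled WT floating 2, -2.03 on KO adherent 1 and 5.91 on the array labelled KO adherent 2. The comparisons by label are therefore given beside a comparison without those 2 arrays, which set KO floating 1, 2 and 3 and KO adherent 1 against WT floating 1 and 3. In that comparison the adherent culture and the genotype cannot be told apart for KO adherent 1. Arrays measured RNA from whole cultures, so fewer cells of a type and less RNA per cell cannot be told apart either.

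The labelled cell type was checked against defining markers. All 10 neural stem markers were above background on all 8 arrays. Of 5 ganglionic eminence markers, 1 was above background on all 8 arrays, and Gsx2 and Nkx2-1 were above it on none. Of 7 microglia markers, Csf1r and Itgam were above background on all 8 arrays, and Aif1, Cx3cr1, Ptprc, Tyrobp and C1qa on none. Of 5 endothelium markers, Pecam1 and Kdr were above it on all 8, and Cdh5 and Cldn5 on none. Of 8 neuron markers, 4 were above it on all 8 arrays, and Stmn2 on none.

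Cells make cholesterol from acetyl-CoA through mevalonate, isoprenoids, squalene and lanosterol. The genes of this route are switched on by SREBP-2, and those of fatty acid synthesis mainly by SREBP-1c, 2 transcription factors made as membrane precursors from Srebf2 and Srebf1. SCAP carries the precursors from the endoplasmic reticulum to the Golgi, where proteases release the active part, and INSIG proteins hold SCAP back when sterols are plentiful. In the developing brain cholesterol is made locally, because plasma lipoproteins do not cross the blood-brain barrier.

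SREBPs bind the sterol regulatory element together with NF-Y, which binds CCAAT, and Sp1, which binds GGGCGG. The 250 bases before the start site were searched on both strands in the RefSeq promoter table of GRCm38.p6, which holds 25 of the 31 genes. Fdps, Fdft1, Sqle, Stard4, Scd1 and Scd2 have no entry there. CCAAT, or ATTGG on the other strand, was present for 14 of 15 sterol enzymes, all but Acat2. It was present for 4 of 6 regulators and transport genes and for 1 of 4 fatty acid enzymes, Fasn. A gene counted if any of its promoters matched, and so counted, 40.4% of the 10563 genes tested with an entry had it. Of all 32851 single promoters 33.9% had it. GGGCGG, or CCGCCC, was present for 14 of 15 sterol enzymes, 6 of 6 regulators and transport genes and 1 of 4 fatty acid enzymes. The share was 62.3% of the genes tested. The letters TCACNCCAC, a strict form of the sterol regulatory element, were found for 1 of 25 genes, Hmgcs1. They were found for 1.27% of the genes tested and in 1.05% of all promoters. A match of letters is a description and does not show binding.

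Below, 4 of these promoters are printed 5′ to 3′ on the gene's strand, with the matches to TCACNCCAC, CCAAT and ATTGG in capitals. Hmgcs1 is shown as the member with the sterol regulatory element, Ebp and Sc5d as the sterol enzymes that fell in the comparison of 6 arrays, and Fasn as the fatty acid enzyme that rose there.
Hmgcs1: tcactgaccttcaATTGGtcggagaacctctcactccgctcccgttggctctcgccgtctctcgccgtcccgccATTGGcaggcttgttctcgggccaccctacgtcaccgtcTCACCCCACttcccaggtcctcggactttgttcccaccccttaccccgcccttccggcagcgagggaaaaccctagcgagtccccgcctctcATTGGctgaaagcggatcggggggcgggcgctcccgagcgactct
Ebp: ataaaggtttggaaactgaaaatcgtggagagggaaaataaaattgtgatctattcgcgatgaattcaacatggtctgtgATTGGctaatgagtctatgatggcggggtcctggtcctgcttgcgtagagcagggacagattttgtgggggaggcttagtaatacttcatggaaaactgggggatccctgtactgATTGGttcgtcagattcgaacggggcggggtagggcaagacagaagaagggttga
Sc5d: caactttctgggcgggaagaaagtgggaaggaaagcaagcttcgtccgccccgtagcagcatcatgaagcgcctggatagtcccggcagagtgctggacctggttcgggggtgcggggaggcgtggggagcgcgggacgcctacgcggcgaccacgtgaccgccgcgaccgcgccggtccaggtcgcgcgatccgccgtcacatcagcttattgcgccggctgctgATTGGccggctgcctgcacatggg
Fasn: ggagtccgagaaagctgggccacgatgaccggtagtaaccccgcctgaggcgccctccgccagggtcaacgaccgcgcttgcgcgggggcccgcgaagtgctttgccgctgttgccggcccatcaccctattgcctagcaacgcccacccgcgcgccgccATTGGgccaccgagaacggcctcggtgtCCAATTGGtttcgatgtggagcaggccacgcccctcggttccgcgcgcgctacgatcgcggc
The Hmgcs1 window is chr13:119690101-119690350 (+), with TCACCCCAC starting 137 bases before the start site and ATTGG starting 237, 176 and 45 bases before it. The Ebp window is chrX:8193513-8193762 (-), with ATTGG 170 and 55 bases before the start site. The Sc5d window is chr9:42264301-42264550 (-), with ATTGG 24 bases before it. The Fasn window is chr11:120824548-120824797 (-), with ATTGG at 90 bases and an overlapping CCAAT and ATTGG at 62 and 59 bases. None of the 3 windows of Ebp, Sc5d and Fasn held TCACNCCAC.

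The sterol enzymes and their regulators varied more across the 8 arrays than the typical feature did. The median range from the lowest to the highest array was 1.27 log2 units for sterol enzymes, 1.33 for regulators and transport genes, 0.79 for fatty acid enzymes and 0.95 for all features tested. The 2 arrays labelled KO adherent lay at opposite ends. KO adherent 1 was the lowest array for 17 of 31 members, 12 of them sterol enzymes, whereas 12.8% of all features were lowest there. KO adherent 2 was the highest array for 17 of 31 members, 11 of them sterol enzymes, against 15.2% of all features. On average a sterol enzyme lay 0.51 below its own mean on KO adherent 1 and 0.55 above it on KO adherent 2. The median deviation over all features was 0.01 and 0.08 on those arrays.

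**Figure D1:**
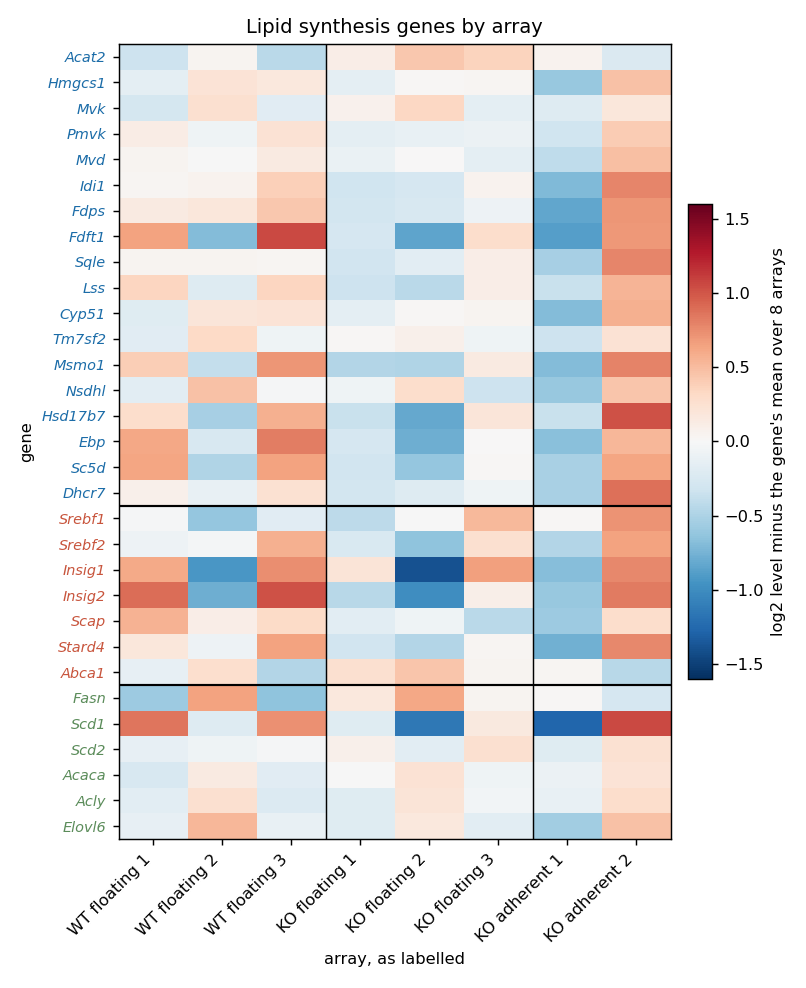
Each row is a gene and each column an array, and the colour gives the log2 level minus the gene's mean over the 8 arrays. Gene names are blue for sterol enzymes, red for regulators and transport genes and green for fatty acid enzymes. The column of KO adherent 1 is mostly blue and that of KO adherent 2 mostly red, and Fdft1, Ebp, Sc5d, Insig2 and Scd1 were above their mean on WT floating 1 and 3, on KO adherent 2 and, by less, on KO floating 3.

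**Figure D2:**
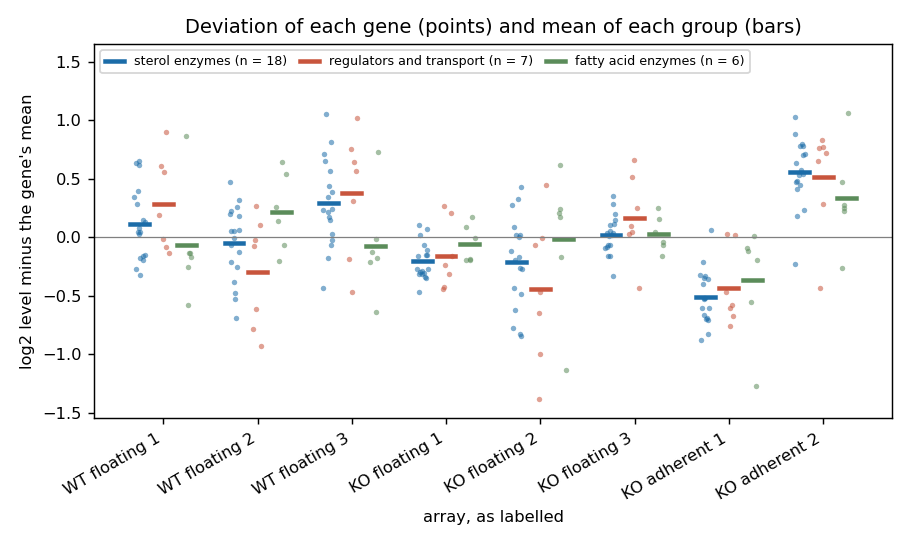
Points are genes and bars the mean of each group of genes, as the log2 level minus the gene's mean over 8 arrays, by array. The sterol enzymes' mean was -0.51 on KO adherent 1 and 0.55 on KO adherent 2, and on the 6 floating arrays it lay between -0.21 and 0.29.

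Among the sterol enzymes, Ebp and Sc5d fell and Acat2 rose without the 2 arrays whose Cbx3 signal opposed their label, and 15 of 18 had a negative difference, against 55.1% of all features. The median difference, KO minus WT, was -0.39 for the 18 enzymes and -0.07 for all 21510 features tested. With limma and an adjusted p threshold of 0.05, 2 sterol enzymes passed as lower and 1 as higher. Over all features 8.34% passed as lower and 8.98% as higher, together 17.3%. The KO arrays lay wholly below the WT arrays for 10 of 18 sterol enzymes and wholly above for 1, where the shares over all features were 29.4% and 24.0%.

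Ebp encodes the sterol isomerase that moves the double bond of the ring system late in the route. Its level was 4.06 and 4.25 on WT floating 1 and 3, against 3.17, 2.66 and 3.45 on KO floating 1, 2 and 3 and 2.77 on KO adherent 1. All 4 KO arrays lay below both WT arrays, a 2.21-fold lower level (log2 difference -1.14, SE 0.25, limma adjusted p = 0.034). The left-out arrays had 3.18 (WT floating 2), within the range of the KO arrays, and 3.98 (KO adherent 2), close to the WT arrays.

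Sc5d encodes the desaturase that acts after Ebp. It was measured at 3.21 and 3.23 on WT floating 1 and 3, and at 2.27, 1.96 and 2.60 on KO floating 1, 2 and 3 and 2.06 on KO adherent 1. The groups did not overlap, and Sc5d was 2.0-fold lower in the KO arrays (log2 difference -0.997, SE 0.20, limma adjusted p = 0.030). WT floating 2 had 2.10 and KO adherent 2 had 3.21, again the reverse of their labels' groups.

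Acat2, the cytosolic acetyl-CoA acetyltransferase at the start of the route, was at -1.65 and -1.76 on WT floating 1 and 3. It was at -1.23, -0.90 and -0.97 on KO floating 1, 2 and 3 and at -1.27 on KO adherent 1. Every KO array lay above both WT arrays, a 1.53-fold higher level (log2 difference 0.62, SE 0.16, limma adjusted p = 0.047). With the replicate number as a block the difference was 0.57 and the adjusted p = 0.058, and over 17 alternatives the adjusted p ran from 0.040 to 0.26. Acat2 was also the 1 member higher without overlap in KO floating than in WT floating by the labels.

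**Figure D3:**
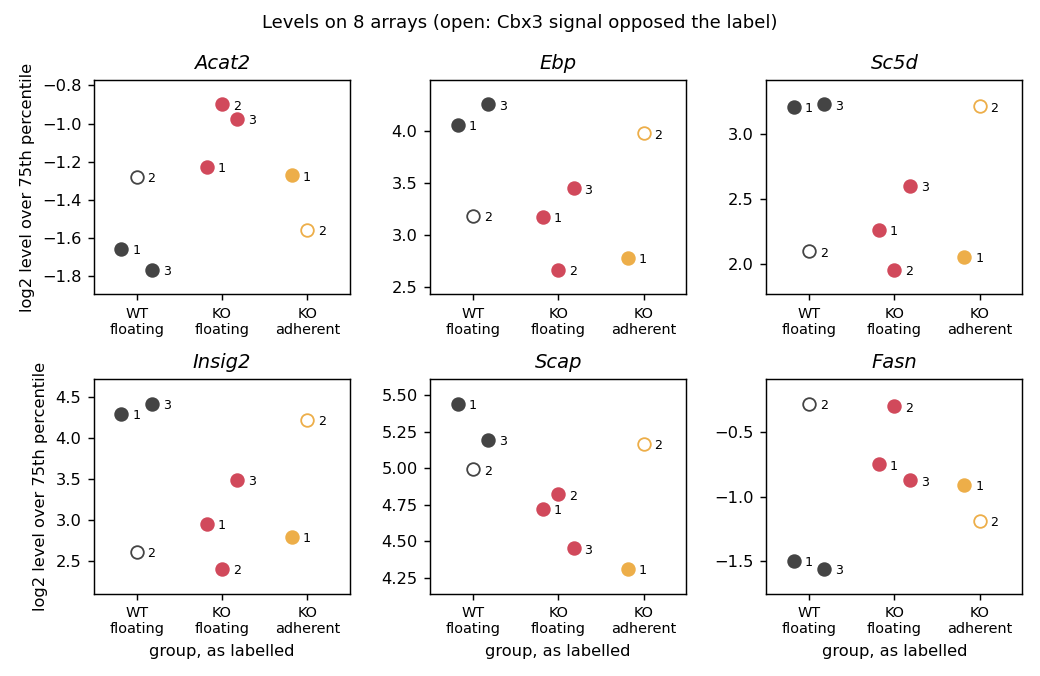
Log2 level over the array's 75th percentile of the 6 genes that passed the threshold in the comparison of 6 arrays, each on its own scale, by labelled group. Numbers are replicate numbers, and open circles mark WT floating 2 and KO adherent 2. For Ebp, Sc5d and Insig2, WT floating 2 lay among the KO arrays and KO adherent 2 near WT floating 1 and 3.

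Fdft1 and Msmo1 had larger or similar differences and missed the threshold. Fdft1, squalene synthase, was at 2.63 and 3.03 on WT floating 1 and 3 and at 1.70, 1.14 and 2.26 on KO floating 1, 2 and 3, with 1.1 on KO adherent 1. These arrays did not overlap either, but the KO values were spread over more than 1 unit, and the difference was -1.28 (SE 0.36, limma adjusted p = 0.056). Msmo1, the methylsterol monooxygenase, was at 5.56 and 5.88 on WT floating 1 and 3 and at 4.70, 4.68, 5.31 and 4.47 on the KO arrays in the same order. Its difference was -0.93 (SE 0.26, limma adjusted p = 0.054), and it passed with the replicate block (-0.80, adjusted p = 0.043). Over 17 alternatives its adjusted p ran from 0.016 to 0.28.

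The KO arrays also lay wholly below WT for Pmvk, the phosphomevalonate kinase, and Mvd, the diphosphomevalonate decarboxylase. They did so too for Fdps, which makes farnesyl diphosphate, and for Lss, which closes the lanosterol ring. The same held for Hsd17b7 and Dhcr7, reductases of later sterols. Their differences ran from -0.27 for Mvd to -0.76 for Hsd17b7, with limma adjusted p between 0.071 for Lss and 0.25 for Mvd. For the other 7 sterol enzymes the arrays overlapped. Idi1, the isopentenyl diphosphate isomerase, differed by -0.52, Sqle, the squalene epoxidase, by -0.26, and Cyp51, the lanosterol demethylase, by -0.21. Hmgcs1, which makes HMG-CoA, differed by -0.19 and Nsdhl, a sterol dehydrogenase, by -0.09. Mvk, mevalonate kinase, and Tm7sf2, a sterol reductase, differed by 0.23 and 0.05. The sizes therefore varied along the route, from Fdft1 and Ebp at more than 1 unit to Hmgcs1 and Tm7sf2 within 1 SE of 0.

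**Figure D4:**
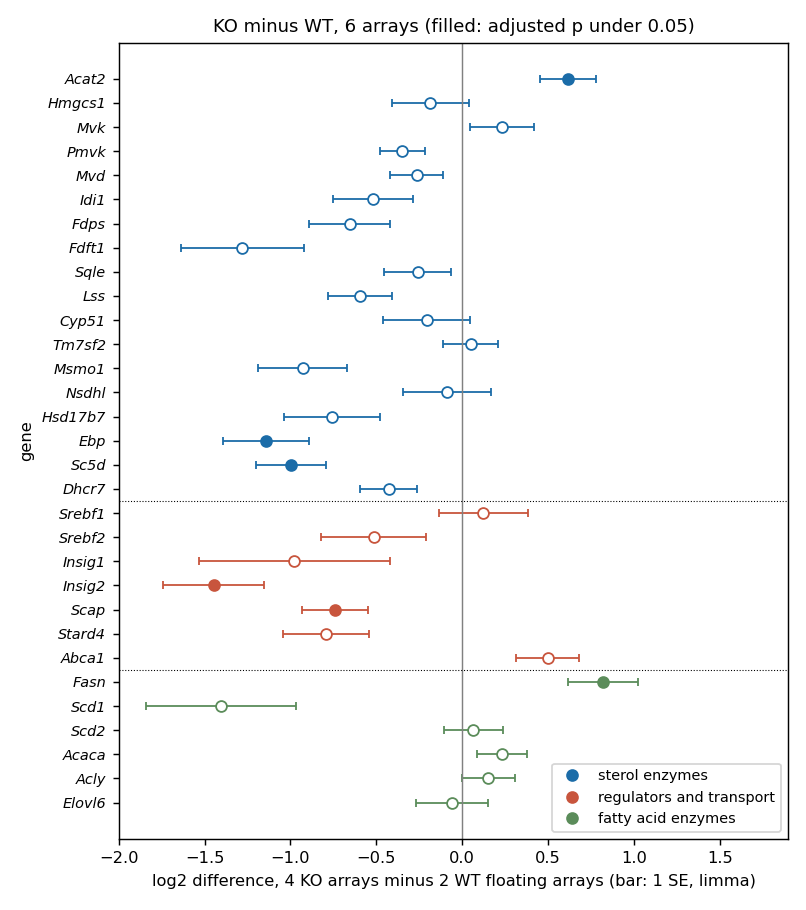
Points are the log2 difference of the 4 KO arrays minus WT floating 1 and 3 for each gene, and bars 1 SE from limma. Filled points passed an adjusted p of 0.05: Ebp, Sc5d, Insig2 and Scap lower, Acat2 and Fasn higher.

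By the labels alone, no sterol enzyme passed the threshold between KO floating and WT floating (3 arrays each, limma on all 8 arrays). Over all 22712 features 0.00440% passed, so this comparison made almost no calls of any kind. At an unadjusted p under 0.05 there was 1 sterol enzyme, Acat2 (log2 difference 0.53, SE 0.20, adjusted p = 0.81), against 1.73% of all features. The difference was negative for 16 of 18, against 53.2% of all features, with a median of -0.23 against -0.03 over all features. The arrays did not overlap for Pmvk (-0.22) and Fdps (-0.46), which were lower, and for Acat2. Over all features 4.59% were lower and 3.83% higher without overlap. Ebp had the most negative difference, -0.74 (SE 0.42, adjusted p = 0.81), with WT floating 2 inside the range of the KO arrays.

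Between KO adherent and KO floating, again no sterol enzyme passed at an adjusted p of 0.05 or at an unadjusted p under 0.05 (limma), where 0% and 1.12% of all features did. Hsd17b7 showed the largest difference, 0.66 (SE 0.52, adjusted p = 0.99). Its level was -0.78 on KO adherent 1 and 0.61 on KO adherent 2, so the SD of the pair, 0.98, was larger than the difference. Hmgcs1 had 5.64 and 6.71 on the adherent arrays and 6.08, 6.26 and 6.27 on the floating ones, with 1 adherent array on each side. KO adherent 1 was below the mean of the 3 KO floating arrays for 18 of 18 sterol enzymes, and below all 3 for 14, where 48.3% and 19.5% of all features were. KO adherent 2 was above that mean for 17 of 18 and above all 3 arrays for 16, where 58.2% and 39.5% of all features were. Without KO adherent 2 the median difference of the sterol enzymes was -0.34, and without KO adherent 1 it was 0.82.

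Of the 7 regulators and transport genes, Insig2 and Scap fell in the comparison of 6 arrays and none rose, where 8.34% of all features fell and 8.98% rose. The difference was negative for 5 of 7, against 55.1% of all features, with a median of -0.74. Insig2 encodes an endoplasmic reticulum protein that retains SCAP. It was at 4.30 and 4.42 on WT floating 1 and 3, and at 2.95, 2.40 and 3.49 on KO floating 1, 2 and 3 and 2.79 on KO adherent 1. All 4 KO arrays lay below both WT arrays, and Insig2 was 2.72-fold lower (log2 difference -1.45, SE 0.29, limma adjusted p = 0.030). WT floating 2 had 2.61 and KO adherent 2 had 4.22. A further Insig2 probe gave -1.26 in the same comparison.

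Insig1, the paralogue that SREBP itself induces, was less uniform. Its level was 1.24 and 1.38 on WT floating 1 and 3, but 0.84, -0.75 and 1.30 on KO floating 1, 2 and 3 and -0.04 on KO adherent 1. KO floating 3 lay between the WT arrays, and the difference of -0.98 had an SE of 0.56 (limma adjusted p = 0.24). Insig1 and Insig2 were both low on KO floating 2, WT floating 2 and KO adherent 1.

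Scap, the escort of the SREBP precursors, was at 5.44 and 5.19 on WT floating 1 and 3. It was at 4.72, 4.82 and 4.45 on KO floating 1, 2 and 3 and at 4.31 on KO adherent 1. The KO arrays lay below both WT arrays, 1.67-fold lower (log2 difference -0.74, SE 0.19, limma adjusted p = 0.046). Here WT floating 2, at 4.99, also lay above the KO floating arrays, so Scap was 1 of the 3 members lower without overlap by the labels (-0.54, SE 0.26, adjusted p = 0.81). KO adherent 2 had 5.17. Under quantile normalization the difference of 6 arrays was -0.49 (adjusted p = 0.15), and over 17 alternatives the adjusted p ran from 0.031 to 0.22.

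Neither SREBP gene passed in any comparison. Srebf2 was at 0.45 and 1.1 on WT floating 1 and 3 and at 0.30, -0.12, 0.79 and 0.07 on KO floating 1, 2 and 3 and KO adherent 1, which overlaps (-0.52, SE 0.30, limma adjusted p = 0.25). Srebf1 was at -0.44 and -0.61 on WT floating 1 and 3 and at -0.85, -0.44, 0.09 and -0.41 on the KO arrays (0.12, SE 0.26, adjusted p = 0.75). Both were highest on KO adherent 2, at 1.18 and 0.29. The array gives transcript levels and not the cleaved proteins.

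Stard4, a cytosolic sterol carrier, was at 1.78 and 2.23 on WT floating 1 and 3 and at 1.28, 1.12, 1.62 and 0.83 on the KO arrays. The groups did not overlap, and the difference was -0.79 (SE 0.25, limma adjusted p = 0.074). Abca1, which exports cholesterol to apolipoproteins, went the other way. It was at 2.98 and 2.65 on WT floating 1 and 3 and at 3.38, 3.57, 3.16 and 3.15 on the KO arrays, without overlap (0.50, SE 0.18, adjusted p = 0.10). On KO adherent 2 Stard4 was at 2.35 and Abca1 at 2.68.

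By the labels, none of the 7 regulators and transport genes passed in either comparison, at an adjusted p of 0.05 or an unadjusted p under 0.05 (limma). Over all features 0.00440% and 0% passed at the adjusted p, and 1.73% and 1.12% at the unadjusted p. Between KO floating and WT floating 5 of 7 differences were negative (median -0.36), against 53.2% of all features. Insig2 had the largest, -0.83 (SE 0.60). Between KO adherent and KO floating 6 of 7 were positive (median 0.25), from 0.56 for Insig2 to 0.07 for Scap. Of all features 42.4% were negative there. Abca1 was lower in both adherent arrays than in the 3 KO floating arrays (-0.45, SE 0.28, adjusted p = 0.99), and 4.80% of all features were lower without overlap there. With KO adherent 1 alone the median was -0.25, and with KO adherent 2 alone it was 0.86.

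Of the 6 fatty acid enzymes, Fasn rose in the comparison of 6 arrays and none fell, which is close to the 17.3% of all features that passed. The median difference was 0.11, with 4 of 6 positive. Fasn, the fatty acid synthase, was at -1.49 and -1.56 on WT floating 1 and 3, and at -0.75, -0.30 and -0.87 on KO floating 1, 2 and 3 and -0.90 on KO adherent 1. All 4 KO arrays were higher, 1.77-fold (log2 difference 0.82, SE 0.20, limma adjusted p = 0.043). Over 17 alternatives it passed in 10, and the adjusted p ran from 0.022 to 0.22. WT floating 2 had -0.28, the highest of all 8 arrays, and KO adherent 2 had -1.18, between the groups. By the labels, KO floating against WT floating gave 0.47 (SE 0.37, adjusted p = 0.81).

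The stearoyl-CoA desaturases Scd1 and Scd2, which place the double bond of oleate, differed from each other. Scd1 was at 2.82 and 2.69 on WT floating 1 and 3 and at 1.77, 0.82, 2.12 and 0.69 on KO floating 1, 2 and 3 and KO adherent 1. Its groups did not overlap, but its difference of -1.40 had an SE of 0.44 and missed the threshold (limma adjusted p = 0.070). Scd2 was at 7.49 and 7.61 on the same WT arrays and at 7.71, 7.45, 7.87 and 7.43 on the KO arrays (0.07, SE 0.17, adjusted p = 0.80). Under quantile normalization Scd2 differed by 0.55 and passed (adjusted p = 0.043), whereas over 17 alternatives its adjusted p reached 0.99 and its sign changed once. Scd1 spanned 0.69 to 3.02 over the 8 arrays, and Scd2 7.43 to 7.87. Whether the differences of Scd1 and Scd2 differ was not tested.

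Acaca, the acetyl-CoA carboxylase, was at 3.12 and 3.20 on WT floating 1 and 3 and at 3.37, 3.61, 3.31 and 3.29 on the KO arrays, which did not overlap (0.23, SE 0.15, limma adjusted p = 0.28). Acly, which splits citrate into acetyl-CoA, differed by 0.15, and the elongase Elovl6 by -0.06, and both overlapped. By the labels, none of the 6 passed between KO floating and WT floating or between KO adherent and KO floating, at an adjusted p of 0.05 or an unadjusted p under 0.05. Over all features 0.00440% and 0% passed at the adjusted p, and 1.73% and 1.12% at the unadjusted p. In the first comparison Scd1 had the largest difference (-0.85, SE 0.64) and in the second Fasn (-0.41, SE 0.41). KO adherent 1 was below the mean of the 3 KO floating arrays for 6 of 6 fatty acid enzymes, and KO adherent 2 above it for 5 of 6, where 48.3% and 58.2% of all features were.

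Over the 3 role groups, 6 of 31 members passed in the comparison of 6 arrays, 4 lower and 2 higher, beside 17.3% of all features. The members' share is close to that background. The count changed as single arrays were left out. It was 0 without KO floating 1 or without KO adherent 1, 6 without KO floating 2, and 10 without KO floating 3. It was also 0 without WT floating 1 or without WT floating 3, but then the WT group is 1 array that is assumed to vary like the KO arrays. Without KO floating 3, Fdft1, Msmo1, Lss, Hsd17b7, Stard4 and Scd1 passed as lower, and Scap and Acat2 no longer passed. With no filter on dim probes, 0 members passed. The shares of all features that passed under these settings are not given here, so the counts are not read as a result about the members. At an unadjusted p under 0.05 (limma) there were 16 of 31 members, against 37.8% of all features.

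The KO arrays lay wholly below the WT arrays for 14 of 31 members and wholly above for 4 (Acat2, Abca1, Fasn and Acaca), where 29.4% and 24.0% of all features did so. WT floating 2 was nearer to the KO mean than to the WT mean for 11 of those 14 and for 4 of 4, against 88.9% and 89.2% of the features that split in the same way. KO adherent 2 was nearer to the WT mean for 14 of 14 and for 3 of 4, against 84.9% and 72.9%. On both left-out arrays most of these members without overlap therefore sided with the Cbx3 level, as most such features did. The members that overlapped were not counted here.

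The slide holds 2 rows of arrays, and of the 6 arrays compared, WT floating 1 and KO floating 1 and 2 lay in the first and WT floating 3, KO floating 3 and KO adherent 1 in the second. Within the first row the median difference was -0.30 for sterol enzymes, -0.58 for regulators and transport genes and 0.15 for fatty acid enzymes. Over all features it was -0.09. Within the second row the medians were -0.50, -0.76 and 0.07, and -0.05 over all features. A total of 12 of 18 sterol enzymes, 5 of 7 regulators and transport genes and 1 of 6 fatty acid enzymes were lower in both rows, against 45.8% of all features. Higher in both rows were 1 of 18, 1 of 7 and 4 of 6, against 36.5% of all features.

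Cell type markers also differed between the same 6 arrays, in both directions. Over all features 8.98% passed as higher and 8.34% as lower, together 17.3%. Sums of their linear levels, in multiples of the 75th percentile, are given with the genes that passed, since a few bright genes can carry a sum. For 10 neural stem markers the sum was 509 to 514 on the WT arrays and 666 to 983 on the KO arrays. Of these, Hes5 (3.22), Nr2e1 (1.04), Slc1a3 (1.0) and Pax6 (0.53) passed as higher, and Nes (-0.80) and Vim (-0.68) as lower. For 7 astrocyte markers the sum was 70.4 to 131 and 185 to 309, with 4 passing as higher and Gfap (-2.35) as lower. Gfap was above background on only 3 arrays, and it entered the test only through the WT arrays. It was at -1.86 and -2.42 on WT floating 1 and 3. On KO floating 1, 2 and 3 and KO adherent 1 it was at -4.42, -5.18, -3.72 and -4.66. Its difference therefore rests in part on KO readings that were not above background. For 10 oligodendrocyte markers it was 62.4 to 65.0 and 147 to 209, with 4 passing as higher and Mbp (-1.56) as lower.

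Of 8 neuron markers, 6 were tested and 3 passed as higher, beside 8.98% of all features, with sums of 23.8 to 24.3 and 30.5 to 37.0. Among those tested, Dcx and Rbfox3 were above background on 5 and 7 of 8 arrays. Both entered the test only through the KO arrays, where they were high. A list of 12 immediate early and stress genes summed to 384 to 464 on the WT arrays and 78.4 to 606 on the KO arrays. The low end was KO floating 2 alone, where Fos was at 3.54, against 6.78, 6.68 and 6.79 on KO floating 1 and 3 and KO adherent 1. On the left-out WT floating 2 the sum was 74.7. None of the 11 tested genes of this list passed, where 17.3% of all features did. The sum of 12 proliferation genes was 170 to 185 and 63.4 to 95.2. Of 11 tested, Ccnd1 (-2.31) and Ccnd2 (-1.12) passed as lower, beside 8.34% of all features as lower and 17.3% in either direction. Between the groups 7 overlapped, such as Mki67 (-0.05) and Ccnb1 (0.01). The part of these lists in the lipid gene differences was not tested.

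Of 9 genes of LXR signalling and cholesterol efflux, 1 passed, beside 17.3% of all features, and their median was -0.49, against -0.07 over all features. That median rests in part on single low readings on KO floating 3. Abca7 was at -6.05 there and at 1.30 to 1.67 on the other arrays. Lpcat3 was at -1.01 there and at 1.75 to 2.23 on the others. The median is therefore not read as a shift of the list. Apoe, the main apolipoprotein of the brain, rose 2.52-fold (1.33, SE 0.26, limma adjusted p = 0.027), from 6.61 and 6.72 on WT floating 1 and 3 to 7.84, 8.43, 7.56 and 8.18 on the KO arrays. Of 20 further fatty acid and lipid synthesis genes tested, 3 passed, all lower, beside 17.3% of all features passing and 8.34% passing as lower. They were the elongase Elovl7 (-2.46), the acyl-CoA ligase Acsl4 (-1.24) and the citrate carrier Slc25a1 (-0.85), and 15 of 20 differences were negative, against 55.1% over all features. Of 16 fatty acid oxidation genes 3 passed, all higher, where 17.3% of all features passed and 8.98% as higher. These were Ppargc1a (1.16), a coactivator of oxidative genes, the nuclear receptor Ppara (0.80) and Cpt1a (0.56), which brings fatty acids into mitochondria. For Ppara another probe was also higher on every KO array than on both WT arrays. A further Ppara probe overlapped, at -0.12 and 0.06 on WT floating 1 and 3. On KO floating 1, 2 and 3 and KO adherent 1 that probe was at -0.02, -0.38, 0.18 and 0.13.

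Repeated probes mostly gave the same sign. Of 12 other probes for 11 members, 7 were above background on all 8 arrays, and 6 of these had the sign of the main probe without the 2 arrays. They included Srebf2 at -0.81, Hsd17b7 at -0.56 and Pmvk at -0.22. The exception was Nsdhl, at -0.09 on the main probe and 0.25 on the other.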

How the data were processed

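RNA from 8 neurosphere cultures was hybridised to single-colour arrays, and groups follow the labels. The deposited scanner files give spot intensity on a linear scale, with Agilent Feature Extraction 11.0.1.1 per the file headers and 9.1.3.1 per the submitters' processing notes. In the value table the authors deposited, 99.8% to 100% of intensity values lay within 0.01% of the processed signal. From the deposited processed signal, log2 values minus each array's 75th percentile were computed, which ranged from 616 to 865. Outlier spots were left out and repeated spots averaged. Of all spots 44.5% to 55.4% were above background and 0 were saturated. The number of arrays limits the precision.

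Probes were named through their accession in RefSeq (27235 of 55681 matched). Probes were tested where all arrays of 1 or more groups were well above background, and a gene was represented by its brightest probe. Tests were two-sided with limma 3.58.1 in R 4.3.3, with Benjamini-Hochberg adjustment over all features (22712 for 8 arrays, 21510 for 6). The p-values reflect the spread between arrays within groups. By the labels, that spread takes in the arrays whose Cbx3 signal opposed their label. In the fit of 6 arrays the KO spread takes in both cultures, and whether any embryo gave both is not stated. The fits were tested on simulated data. For the 6 arrays they recovered 21% of 2-fold changes and 71% of 4-fold ones, and for KO floating against WT floating 8% and 51%. In each simulation only 100 features changed 2-fold and 100 changed 4-fold, with each feature's own spread within the groups of that fit. In the real fit of 6 arrays 17.3% of all features passed, so these shares need not hold for it.

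The members, gene lists and the comparison of 6 arrays were chosen with earlier results of these data known. Values on every array are given for members past the threshold in any comparison, for up to 3 members of each role group with the largest difference and 1 with the smallest, and for the pairs Insig1 and Insig2, Srebf1 and Srebf2, and Scd1 and Scd2. For other lists, genes past the threshold are named, and a list of other sterol synthesis and uptake genes is not reported here.

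Whether equal replicate numbers pair arrays was checked on the floating arrays. The correlation of their deviations from the group mean, across features, was 0.103, 0.590 and 0.335 for numbers 1, 2 and 3, but it was also 0.346 between WT floating 1 and KO floating 3. The WT mean includes WT floating 2, whose Cbx3 signal opposed its label. Its deviations correlated at -0.796 and -0.827 with those of WT floating 1 and 3, so the check cannot decide on pairing. The pairing is therefore uncertain, and results whose call a replicate block changes are printed with that block too. Alternatives covered normalization, background correction, the authors' value table, probe filters, the probe chosen, the variance model, blocks and leaving out each array.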

Additional observations from a re-analysis of the deposited data

How the results depend on the processing

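No difference of a member past the threshold changed sign under the alternatives run, while Hmgcs1, Tm7sf2, Nsdhl, Srebf1, Scd2 and Elovl6, which did not pass, changed sign in 1 or 2 of 17. In the comparison of 6 arrays, the count of members past the threshold was 6 and fell to 0 with no filter on dim probes. Leaving out 1 array at a time it ranged from 0 to 10, where leaving out a WT array leaves 1 and the spread then comes from the KO arrays alone. Other settings gave 4 (quantile normalization, and the probes tested with all 8 arrays) to 8 (probes above background on every array of the fit), with 6 under the replicate block and 5 when slide rows formed the block. Of 17 alternatives, Ebp, Sc5d and Insig2 passed in 12 each, Fasn in 10, Scap in 8 and Acat2 in 5. Normexp background correction gave 6 members, all lower. These counts are given without the shares of all features that passed under each setting, and are not read as a result about the members. Both comparisons by label gave 0 under every alternative, the replicate block included. Of all calls in the 6 arrays, 51.8% were higher with the 75th percentile, 59.7% with quantile normalization and 42.9% with normexp. With 2 WT arrays, members short of the threshold may differ without being called. The recovery of 21% for 2-fold changes came from simulated data in which few features changed, and need not hold for this fit. The causes were not tested.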
